A study of Mus musculus with 721 samples.

Results

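Macrophages are phagocytes that reach embryonic organs before bone marrow exists, many of them from yolk sac progenitors. They depend on Csf1r, the receptor for the growth factors Csf1 and Il34, and use adaptors such as Tyrobp and Fcer1g to pass signals from receptors of the Fc and Trem families. In the embryonic pancreas they lie among branching epithelium, whose tips hold progenitors that later make digestive enzymes.

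Macrophage-like cells were compared here with tip epithelium of the same embryonic day, at E11.5 and E12.5. Cells were kept from 100000 fragments upward if 1500 or more genes reached 1 FPKM, the fragments of a gene scaled by its transcript length and by the depth of the cell. Macrophage-like cells were kept cells with at least 2 of the 4 genes Tyrobp, Fcer1g, Csf1r and Laptm5 at 10 FPKM or more. Tip cells had all 4 of these genes under 10 FPKM, Vtn or Gc at 10 FPKM or more, and Pecam1 under 10 FPKM. This gave 43 macrophage-like cells (20 of E11.5, 23 of E12.5) and 83 tip cells (38 of E11.5, 45 of E12.5). Together they were 126 of the 721 cells of the series, of which 658 were kept.

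All cells came from pancreata of mouse embryos in which eGFP reports on Neurogenin 3 (Neurog3), a factor needed for islet cells to form. Every group shared this reporter, and the labels name no strain and no treatment. Cells positive for eGFP were sorted singly into plates and turned into SMART-seq cDNA, which copies whole polyadenylated transcripts. The labels name no animals, so each stage was 1 set of cells, and cells of a set are not replicates. For this reason no test was run, and all differences are descriptions of these cells.

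The macrophage-like cells made up 27.4% of the 73 kept cells at E11.5 (95% exact Clopper-Pearson interval 17.6% to 39.1%) and 25.6% of the 90 at E12.5 (16.9% to 35.8%). Intervals cover counting error only. Depth was alike on both sides: the median was 657984 fragments in macrophage-like and 612334 in tip cells at E11.5, and 500309 and 545820 at E12.5. The cells of both stages shared 78 index pairs, and 6 of these pairs carried a macrophage-like cell at both stages. How many such pairs the shares of macrophage-like cells alone would give was not worked out.

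The 4 choosing genes fix the split, so their counts are given as a description. All 4 were on, meaning at 10 FPKM or more, in 19 of the 20 macrophage-like cells at E11.5 and in 20 of 23 at E12.5. Just inside the threshold lay 1 cell of E12.5 with 2 genes on, which held 237 FPKM of Fcer1g and 464 of Laptm5. Just outside lay 13 kept cells with 1 gene on, 3 at E11.5 and 10 at E12.5. Of these 10 cells, 6 also had Pecam1, an endothelial adhesion gene, on.

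The promoters of a few blood-cell genes are shown because they hold the letters bound by PU.1, the transcription factor encoded by Spi1. The motifs searched were GAGGAAGT and AGAGGAAG on both strands. They overlap in AGAGGAAGT. Of 27025 mouse genes with a promoter of 300 bases in the RefSeq table (build GRCm38.p6), 6.68% held at least 1 of them. Of the 460 genes higher in macrophage-like cells at both stages, 79.1% had a promoter in that table. That is under the 80% needed, so a comparison of shares is void and none is given. Those shown were picked from 14 promoters with a motif among 36 of the choosing genes and the myeloid core, Fc and ITAM lists. The others of the 36 held none. Only 76.6% of these genes had a promoter in that table, so this is no share to compare either. The 100 bases before the start of Laptm5 (chr4:130913216-130913315, plus strand), Inpp5d (chr1:87620212-87620311, plus strand), Vav1 (chr17:57279000-57279099, plus strand) and Fcgr1 (chr3:96293970-96294069, minus strand) follow, 5′ to 3′ on the strand of the gene, with the motif in capitals. A match is a description of these letters, not a binding site.
Laptm5: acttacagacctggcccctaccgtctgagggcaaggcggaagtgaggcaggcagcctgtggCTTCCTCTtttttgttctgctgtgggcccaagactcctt
Inpp5d: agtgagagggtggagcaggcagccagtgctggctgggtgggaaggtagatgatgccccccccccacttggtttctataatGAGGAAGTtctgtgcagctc
Vav1: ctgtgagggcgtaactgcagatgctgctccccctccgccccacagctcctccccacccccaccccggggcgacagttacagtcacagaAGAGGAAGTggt
Fcgr1: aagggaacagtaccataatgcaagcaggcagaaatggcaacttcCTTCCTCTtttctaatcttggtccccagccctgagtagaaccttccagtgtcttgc

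The macrophage label was checked against its 5 given markers. Tyrobp, which the choice used, ranged from 80.7 FPKM through a median of 2217 to 4644 at E11.5, and from 0 through 2788 to 5320 at E12.5. Csf1r, also used, was on in 19 of 20 and 20 of 23 cells. Ptprc encodes CD45, the tyrosine phosphatase found on blood cells other than red cells. It was on in 18 of 20 macrophage-like cells at E11.5 and 21 of 23 at E12.5, with medians of 85.5 and 114 FPKM, and in 0 of 38 and 0 of 45 tip cells. Cx3cr1, the fractalkine receptor, ranged from 37.4 through 632 to 1402 FPKM at E11.5 and from 0 through 651 to 3146 at E12.5. The highest tip cell held 0.589 FPKM at E11.5 and 8.26 at E12.5. At E12.5, Cx3cr1 was listed at 0 in 3 macrophage-like cells. C1qb, a chain of complement C1q, was on in 19 of 20 and 16 of 23 macrophage-like cells, with medians of 3603 and 1360 FPKM, and in 1 of 38 and 1 of 45 tip cells. All 5 markers were on together in 17 of 20 cells at E11.5 and 14 of 23 at E12.5.

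**Figure D1:**
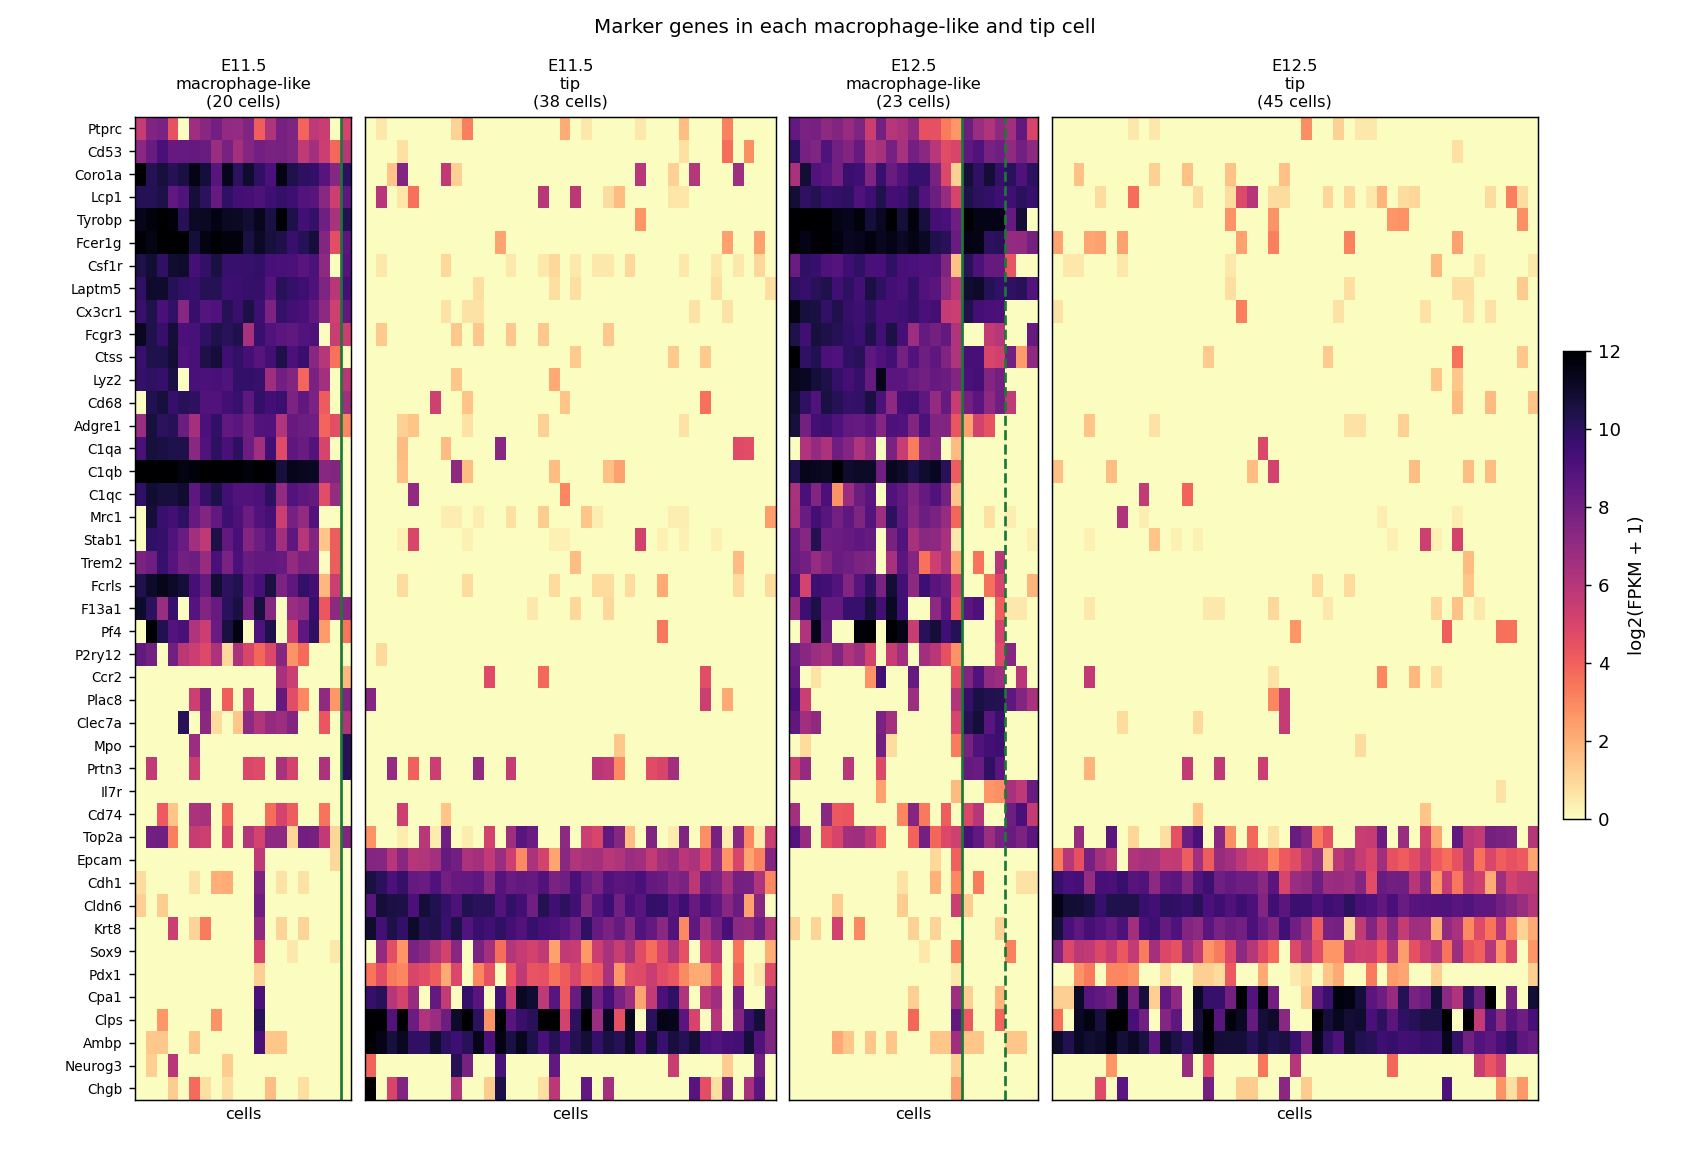
Marker genes (rows) in each cell (columns) as log2(FPKM + 1), for macrophage-like and tip cells of both stages. The solid green line sets off the cells with C1qb under 10 FPKM, 1 of 20 at E11.5 and 7 of 23 at E12.5, and the dashed line sets off the 3 of these with Il7r on.

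The label did not hold for every chosen cell. C1qb was under 10 FPKM in 8 of the 43 cells, and in these 8 C1qa, C1qb and C1qc were all listed at 0. They formed a pair of kinds, which were separated after their values were seen and are named here only by their genes.

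The first kind was 5 cells with Mpo on, 1 at E11.5 and 4 at E12.5. Mpo encodes myeloperoxidase and Prtn3 proteinase 3, both enzymes of granules in myeloid precursors and neutrophils. Mpo ranged from 220 through 653 to 1122 FPKM in these cells, against a median of 0 in the 35 cells with C1qb on, of which 2 had it on. Prtn3 ranged from 309 to 1133 FPKM, and was also on in 11 of the 35 cells with C1qb on, at up to 123 FPKM. Plac8 ranged from 196 to 1456 FPKM, and was on in 11 of the 35 as well, at up to 563, and in the 3 cells described next. Ccr2, the receptor that draws monocytes to Ccl2, was on in 4 of the 5 and in 6 of the 35. These cells held Csf1r, at 322 to 1101 FPKM, and Cx3cr1, at 366 to 1339. Mrc1, the mannose receptor, and Stab1, a scavenger receptor, were on in 0 of the 5, against 32 and 31 of the 35 cells with C1qb on.

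The second kind was 3 cells of E12.5 with Il7r, the interleukin 7 receptor, at 54.8, 82.9 and 310 FPKM. Il7r was on in 0 of the 35 cells with C1qb on. Cx3cr1, Lyz2 and Adgre1 were listed at 0 in all 3, and Csf1r reached 19.9 FPKM at most, and C1qb was listed at 0, so of the 5 given markers Cx3cr1 and C1qb were missing in all 3 cells and Csf1r was on in 1. Ptprc stayed on, at 31.5 to 346 FPKM. Among the genes with the largest differences from the C1qb-positive cells were Gimap4, at 392 to 698 FPKM, and Ccr7, the receptor that guides cells to lymphoid tissue, at 87.5 to 228 FPKM. Cd74, the invariant chain of MHC class II, was at 46.99 to 572 FPKM in them. The name macrophage-like does not hold for these 3 cells, and they are counted below because the rule chose them.

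**Figure D2:**
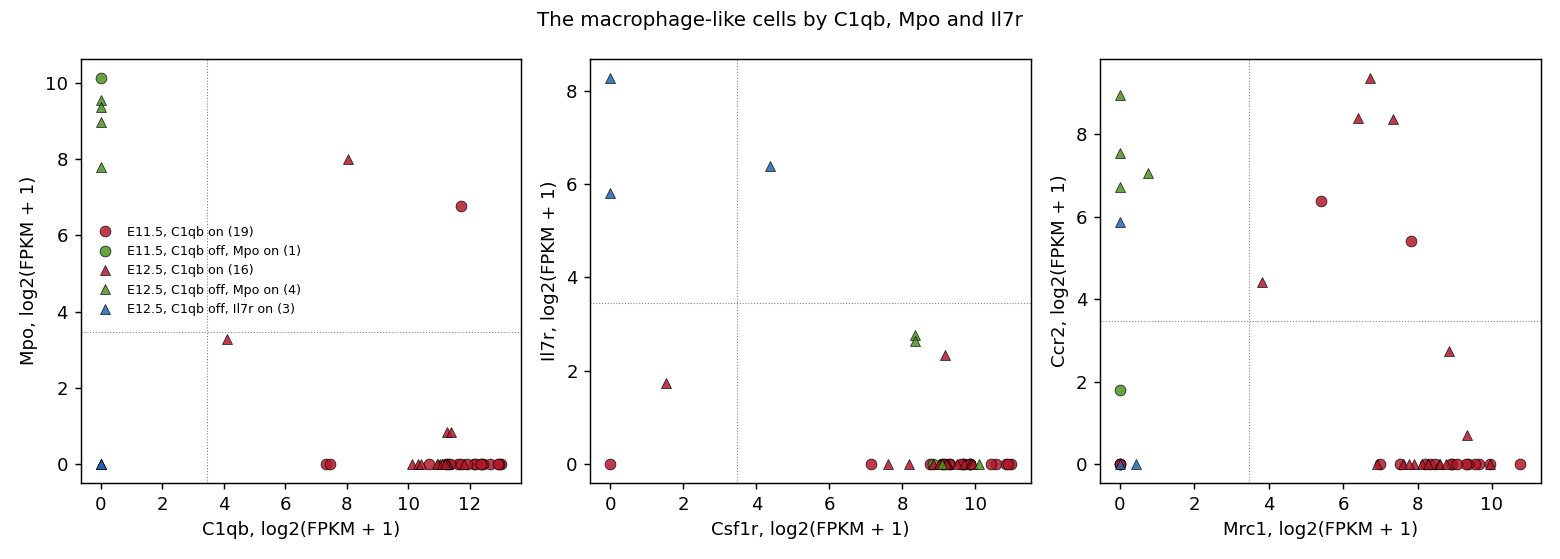
Each point is 1 of the 43 chosen cells, with both axes as log2(FPKM + 1) and dotted lines at 10 FPKM. The 5 cells in green have Mpo on and no C1qb, 2 cells with C1qb on also have Mpo on, the 3 with Il7r on have little or no Csf1r, and Ccr2 is on in 4 of the 5 green cells.

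The tip side was checked in the same way. Epcam or Cdh1, the genes of epithelial adhesion, were on in 38 of 38 and 45 of 45 tip cells, and Clps, which encodes the lipase cofactor colipase, in 34 and 39. Chga, Chgb or Gcg, genes of endocrine cells, were also on in 15 of the 38 tip cells at E11.5 and in 6 of the 45 at E12.5. Of 18 listed transcription factors of early pancreatic epithelium, a median of 7 were on per tip cell at E11.5 and 5 at E12.5. Pdx1, which is among them, was on in most tip cells of E11.5 and under 10 FPKM in nearly all of E12.5. By the difference defined below, 10 of 16 compared factors and 5 of 12 tip and acinar genes were higher in tip cells at E11.5. At E12.5 these were 8 of 15 and 8 of 10. The summed level of the 16 listed endocrine genes had medians of 10.8 and 3.90 FPKM in tip cells. Its highest values were 108980 FPKM at E11.5 and 101733 at E12.5. So the tip side, as chosen by Vtn and Gc, was epithelial but included cells with endocrine transcripts, at high levels in some. Pdx1 in it differed by stage.

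Genes were compared where their mean over the compared cells was at least 1 FPKM, on the mean over cells of log2(FPKM + 1). A difference is macrophage-like minus tip on this scale, which understates changes of low genes, and a gene was counted at a difference of 2 or more either way. At E11.5, 678 of 14448 genes were higher in macrophage-like cells (4.69%) and 883 lower (6.11%). At E12.5, 665 of 12905 were higher (5.15%) and 476 lower (3.69%). In both stages 460 of 11765 genes were higher (3.91%) and 369 lower (3.14%), and 0 were past the fold in opposite directions. Without the 8 cells lacking C1qb the counts were 675 higher and 915 lower at E11.5, and 649 and 557 at E12.5.

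**Figure D3:**
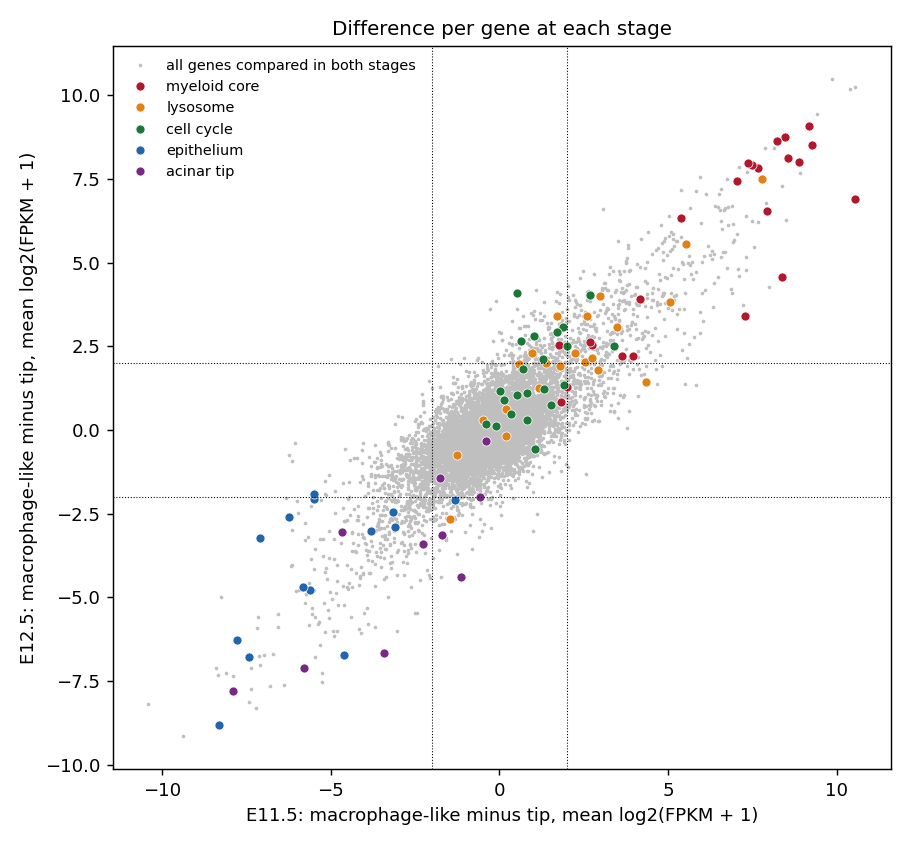
Each point is a gene, with its difference in mean log2(FPKM + 1), macrophage-like minus tip, at E11.5 across and at E12.5 upward; dotted lines mark a difference of 2. Myeloid core genes lie at the upper right, epithelial and acinar genes at the lower left.

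Of the 25 listed myeloid core genes, all 25 were compared at E11.5 and 24 of them the day after, and 22 were higher at each stage with 0 lower. Its median difference was 7.38 at E11.5 and 6.44 at E12.5, against -0.25 and -0.14 over all genes. Coro1a, an actin regulator of blood cells, had medians of 1133 and 697 FPKM in macrophage-like cells and 0 in tip cells, with differences of 9.26 and 8.52. Ly86, a partner of a Toll-like receptor homologue, ranged from 41.1 to 7189 FPKM at E11.5 and from 60.2 to 2897 at E12.5, while the highest tip cells held 15.9 and 2.36. For Cd53, a tetraspanin of blood cells, the highest tip cell at E11.5 held 3.63 and the lowest macrophage-like cell 3.77, as log2(FPKM + 1). How many of all compared genes had such a gap was not counted, so the gap marks out neither Ly86 nor Cd53. Ctss, a lysosomal protease of antigen-handling cells, was on in 19 of 20 and 22 of 23 cells, and Lyz2, lysozyme, in 18 and 20. Not all core genes were high: Cd14 was on in 7 and 6 cells, and Mpeg1 in 7 and 11.

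Fc receptors and the signalling proteins of the ITAM pathway, through which Tyrobp and Fcer1g act, showed the same split. At E11.5, 15 of 18 compared genes were higher, and at E12.5 15 of 16. Fcgr3 was on in 19 of 20 and 19 of 23 macrophage-like cells, with medians of 571 and 352 FPKM, and in no tip cell. Trem2, a lipid-sensing receptor that signals through Tyrobp, was on in 18 and 16 cells. The kinases Lyn (on in 18 and 20 cells) and Btk (18 and 19) and the exchange factor Vav1 (20 and 19) lie downstream of these receptors. The inhibitory receptor Fcgr2b was on in 1 and 2 cells, and the kinase Fgr in 1 and 1.

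Genes of embryonic and tissue-resident macrophages were unevenly present. Of 18 list members 17 had 1 entry in the table. At E11.5, 9 of the 13 compared were higher and 1 lower, and at E12.5 7 of 14 were higher and 1 lower. Mrc1 was on in 16 cells at each stage, with medians of 338 and 161 FPKM. F13a1, a clotting factor subunit made by macrophages, was on in 18 and 17 cells, and Maf, a transcription factor of resident macrophages, in 18 and 18. Pf4 spread widely, from 0 through 342 to 10595 FPKM at E11.5 and from 0 through 42.9 to 8390 at E12.5. Lyve1, a hyaluronan receptor, was on in 4 and 3 cells, and Timd4, a receptor for dying cells, in 3 and 2. Cd163 was on in no cell, and Vsig4 and Cbr2 were listed at 0 in all 43. Id3, which is also a member, was instead higher in tip cells, with differences of -5.20 and -5.16.

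Some genes used to mark brain microglia were also present. Fcrls was on in 18 of 20 and 18 of 23 cells, with medians of 780 and 213 FPKM, and P2ry12, a receptor for nucleotides, in 13 and 15. Gpr34 was on in 10 and 16 cells. Sall1, a transcription factor of microglia, was listed at 0 in every macrophage-like cell, and Tmem119 was on in 5 and 0. Of the list, 6 of 10 compared genes were higher at E11.5 and 4 of 9 at E12.5.

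Lysosomal genes were expressed on both sides, at higher levels in macrophage-like cells. At E11.5, 11 of 22 compared genes were higher and 0 lower, and at E12.5 12 were higher and 1 lower. Ctsb, cathepsin B, had medians of 2106 and 1846 FPKM against 129 and 143 in tip cells. Ctsc, cathepsin C, had medians of 944 and 1057 against 0 and 0.764. Lgmn, legumain, had differences of 5.53 and 5.56. Cd63, a membrane protein of late endosomes, went the other way, with differences of -1.45 and -2.67.

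Engulfment genes were split. Pros1, a bridge to dying cells, was on in 17 of 20 cells at E11.5 and 9 of 23 at E12.5. Elmo1 (17 and 15) and Dock2 (15 and 18) act together on Rac during uptake. Of the receptors, Mertk was on in 9 and 5 cells, Axl in 4 and 4, and Tyro3 in 0 and 1. Mfge8, another bridge, was lower, with differences of -2.71 and -3.57. Of the compared genes 9 of 16 were higher and 1 lower at E11.5, and 5 of 17 and 1 at E12.5.

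Among iron and lipid genes, 7 of 17 were higher at each stage, and 1 was lower at E11.5 and 2 the day after. Hmox1, which breaks down haem, was on in 15 and 16 macrophage-like cells, with differences of 4.73 and 4.67. Slc11a1, an iron transporter of phagosomes, was on in 15 and 13 cells and in no tip cell. Lpl, lipoprotein lipase, was on in 17 and 15. Ftl1, ferritin light chain, was on in every cell of both sides, with medians of 14315 and 8976 FPKM against 4413 and 2560.

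Chemokine and cytokine genes were higher for some members. At E11.5, 9 of 14 compared genes were higher, and at E12.5 5 of 9. Ccl24, an attractant of eosinophils, was on in 14 and 12 cells, Ccl9 in 14 and 13, and Ccl3 in 10 and 13. Il18 was on in 10 and 9 cells. Il1b was on in 2 and 1 cells, Tnf in 1 and 2, and Il6 and Il10 in none at this depth.

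Of 6 compared receptors for chemoattractants, 4 were higher at E11.5 and 5 at E12.5, with 0 lower. Ccr1 was on in 16 and 17 cells, and C3ar1 and C5ar1, receptors of complement fragments, in 17 and 16 and in 15 and 10. In the list of growth factor and cytokine receptors with their ligands, 7 of 14 compared genes were higher and 1 lower at E11.5. At E12.5 these were 6 of 13 and 1. Such receptors other than Csf1r included Il4ra, on in 18 and 15 cells, and Csf2rb, on in 14 and 8. Csf1 itself was on in 2 and 0 macrophage-like cells and Il34 in 1 and 0, and the tip cells held Csf1 in 1 and 0 and Il34 in 0 and 1.

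Of the antigen presentation list 3 of 11 compared genes were higher at E11.5 and 4 of 8 at E12.5, with 0 lower. Its class II genes were uneven. H2-Aa was listed at 0 in all 43 cells and H2-Ab1 was on in 1 and 0 cells. Cd74, the invariant chain, was on in 8 and 11, and H2-DMa, which helps load class II, in 7 and 12, against 2 of 38 and 1 of 45 tip cells. Cd86, a costimulatory ligand, was on in 14 and 19. B2m, the light chain of class I, was on in all 43 cells, with medians of 1395 and 1582 FPKM against 32.9 and 75.8 in tip cells.

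Of 10 compared growth factor genes, 1 was higher and 3 lower at E11.5, and 1 higher and 2 lower the day after. The median differences were -0.18 and -0.32, against -0.25 and -0.14 over all genes. The higher gene was Igf1, while the related Igf2 was lower. Igf1 was on in 13 of 20 and 12 of 23 macrophage-like cells, against 6 of 38 and 3 of 45 tip cells, with differences of 3.34 and 2.90. Igf2 was on in 3 and 2 macrophage-like cells, against 36 and 44 tip cells, with differences of -6.98 and -6.72. Spp1, osteopontin, also lay on the tip side, with differences of -4.16 and -5.93.

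Transcription factors of myeloid cells were detected in part. Fli1 was on in 17 and 16 cells, Irf5 in 17 and 16, and Zeb2 in 16 and 14. Spi1, which encodes PU.1, was on in 5 and 12 cells, with medians of 2.18 and 14.4 FPKM. Cebpa and Cebpb were on in 0 cells at either stage. Of 15 compared factors 8 were higher and 1 lower at each stage. The lower one was Id2, with differences of -4.39 and -5.59, although it reached 1532 FPKM in 1 of the Il7r cells.

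Outside the lists, the genes with the largest differences at both stages were led by Arhgdib, a regulator of small GTPases in blood cells, with differences of 9.87 and 10.49. Rac2, the blood-cell Rac, had 7.86 and 8.42. Tmsb4x, which binds actin monomers, had medians of 9533 and 8846 FPKM in macrophage-like cells and 164 and 70.8 in tip cells. Ighm, an immunoglobulin heavy chain gene, was on in 18 of 20 and 21 of 23 cells. In the list of lymphoid and dendritic cell genes, 1 of 4 compared was higher at E11.5 and 1 of 7 at E12.5, with 0 lower. Cd79b of that list, a chain of the B cell receptor, was on in 17 and 21 cells. Cd79a, the partner chain of Cd79b, was on in none of the 43 cells. On the tip side the largest outside the lists were Mdk, the growth factor midkine (differences -10.40 and -8.18), Grb10 (-7.41 and -8.14), Serpina1e (-7.36 and -7.73), Gpc3 (-8.33 and -7.32) and Peg3 (-8.40 and -7.10).

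**Figure D4:**
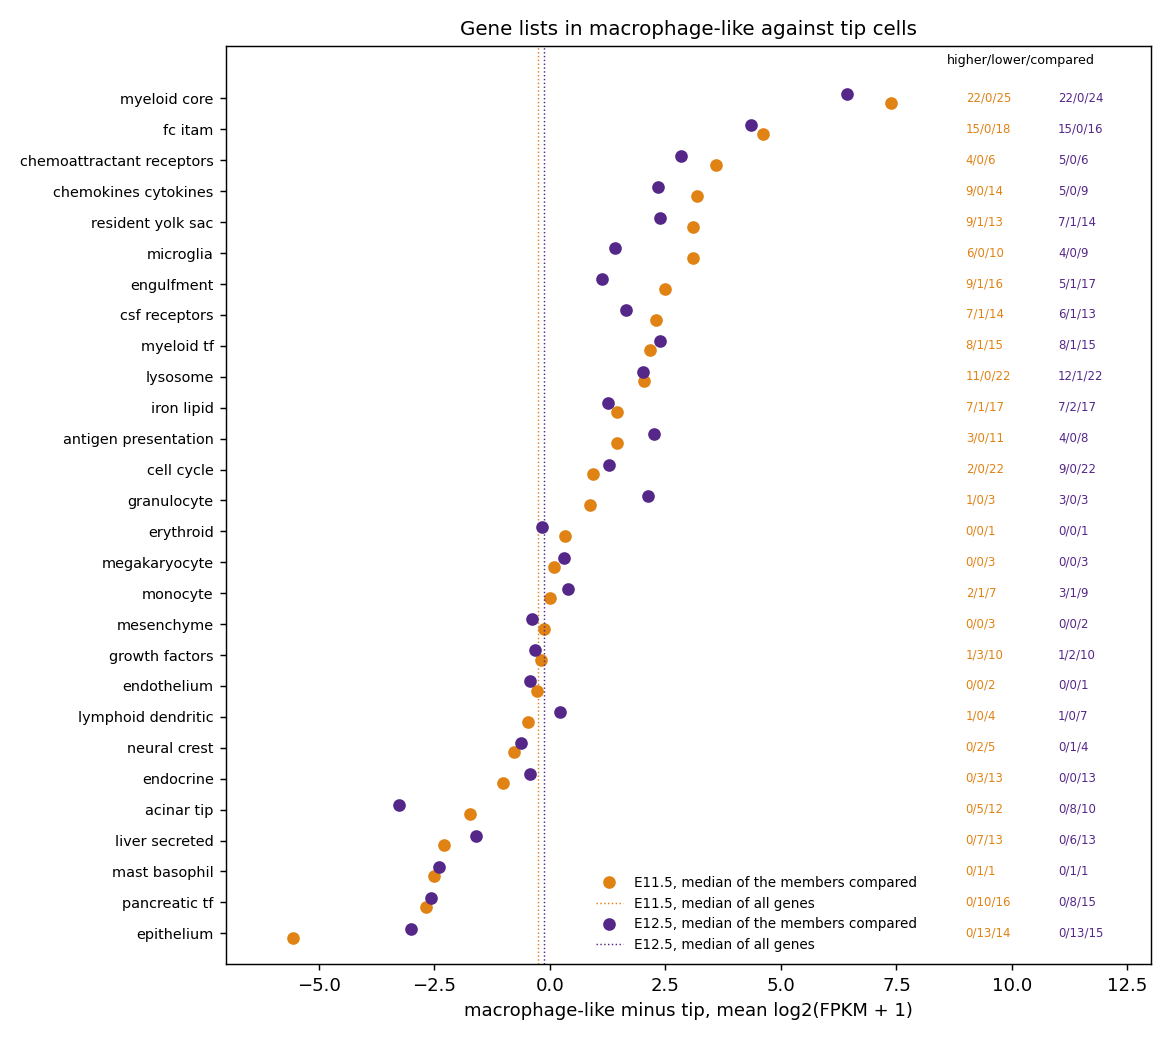
The horizontal axis gives the median difference in mean log2(FPKM + 1), macrophage-like minus tip, of each gene list at E11.5 (orange) and E12.5 (purple), with dotted lines at the median of all genes. The numbers at the right count the genes higher, lower and compared; the myeloid core list has 22 higher of 25 at E11.5.

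Markers of epithelium and mesenchyme were low in most of the chosen cells, and those of other blood cells were present in part. Of the epithelial genes compared, 13 of 14 were lower at E11.5 and 13 of 15 at E12.5. Their summed level had a median of 4.91 FPKM in macrophage-like cells and 2882 in tip cells at E11.5. In 1 macrophage-like cell per stage Epcam or Cdh1 was on. The E11.5 cell held 200 FPKM of Cdh1, 1079 of Clps and 580 of Ambp beside 4460 of C1qb. The E12.5 cell held 15.2 FPKM of Epcam and 351 of Clps, with C1qb at 16.2. Whether these wells held more than 1 cell was not tested. Without such cells, 665 genes were higher and 979 lower at E11.5, and 702 and 488 at E12.5. The 13 listed mesenchymal genes were on in no macrophage-like cell, and neither were Kdr and Cdh5, defining genes of endothelium. Pecam1, which blood cells share with endothelium, was on in 6 cells at each stage, and Egfl7 in 7 and 6. Of 10 listed genes of neutrophils and their precursors, Csf3r (13 and 11 cells), Prtn3 (8 and 8) and Mpo (2 and 5) were on most often, and Prtn3 was also on in 10 and 3 tip cells, while Elane, Ctsg and Camp were on in none. In that list, 1 of 3 compared genes was higher at E11.5 and 3 of 3 the day after, and its summed level reached 2340 and 1671 FPKM in macrophage-like cells against at most 132 in tip cells of either stage. Of the monocyte list 2 of 7 compared genes were higher and 1 lower at E11.5, and 3 of 9 and 1 the day after, with summed levels of up to 402 and 2285 FPKM. The part of such cells in the gene counts was not tested beyond leaving out the 8 cells without C1qb.

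No eGFP transcript at 1 FPKM or more was found in the 43 macrophage-like cells, although cells were sorted for eGFP. For 0 of 43 cells the exact 95% interval reaches 8.22%, and 3 counts of the total would be 6.98%. In tip cells eGFP was found in 4 of 38 at E11.5 and 0 of 45 at E12.5. Neurog3 itself was on in 1 of 20 and 0 of 23 macrophage-like cells, and in 7 and 7 tip cells. How the chosen cells passed the sort was not tested.

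Cell cycle genes were detected on both sides. At E11.5, 2 of 22 genes were higher in macrophage-like cells, and 9 of 22 the day after, with 0 lower. Over all genes 4.69% and 5.15% were higher. The median difference of the list was 0.93 and 1.28, against -0.25 and -0.14 over all genes. Top2a or Mki67, genes of dividing cells, was on in 13 of 20 macrophage-like cells at E11.5 (65%, interval 40.8% to 84.6%) and in 21 of 23 at E12.5 (91.3%, 71.96% to 98.9%). In tip cells the counts were 20 of 38 and 23 of 45. Among cells with C1qb on they were 12 of 19 and 14 of 16, and in the 8 others Top2a was on in every cell.

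The stages were set side by side within the macrophage-like cells, with the same difference in tip cells beside it. Both stages carry the label of the first run and each was 1 set of cells, with no plate named per cell, so stage and set cannot be told apart. The later set was also shallower, with fewer genes detected per cell. Median depth went from 657984 to 500309 fragments in macrophage-like cells, and from 612334 to 545820 in tip cells. The median number of genes reaching 1 FPKM went from 6273 to 5444 and from 6600.5 to 5470. The part of depth and detection in the stage differences that follow was not tested. Over 14086 genes, 53 were higher by 2 or more at E12.5 in macrophage-like cells (0.376%) and 688 lower (4.88%). In tip cells 17 were higher (0.121%) and 817 lower (5.8%). The differences correlated across genes on both sides (Pearson r = 0.55, Spearman coefficient = 0.40), where genes are not independent and both sides share the 2 sets of cells. The median difference was lower at higher GC content of the transcript, going from -0.04 under 45% GC to -0.35 at 60% or more in macrophage-like cells, and from -0.16 to -0.66 in tip cells.

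Several of the largest negative stage differences were seen on both sides. Cox5a, a respiratory chain subunit, had stage differences of -7.30 in macrophage-like and -6.75 in tip cells. Apoe, the lipid carrier, had -6.64 and -5.70, and Pfn1, profilin, -6.05 and -6.25. Ccl12, an attractant of monocytes, had -6.19 in macrophage-like cells and -0.07 in tip cells. It was on in no tip cell, so the tip value cannot show whether this difference was shared. Among macrophage-like cells Ccl12 was on in 13 of 20 at E11.5, with a median of 531 FPKM and a highest of 5180. At E12.5 it was on in 2 of 23, with a highest of 25.03. Ccl2, another attractant of monocytes, was on in 14 and 4 cells. Among the cells with C1qb on, the stage difference of Ccl12 was -6.36 and that of Ccl2 -4.17.

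C1qa, C1qb and C1qc were also lower at E12.5, by stage differences of -4.30, -3.73 and -3.84. Among cells with C1qb on these were -3.18, -1.14 and -2.20. This choice takes out the cells with the least C1qb, so the value of C1qb itself depends on it. Their transcripts hold 59.5%, 57.4% and 57.5% GC, and genes of 55% to under 60% GC had a median of -0.32 in macrophage-like cells. Mrc1 had -1.43 over all chosen cells and 0.53 among those with C1qb on, so its direction turned with the cells counted. Of the genes higher at E12.5, Ccnb1, a mitotic cyclin, had 2.96 against -0.62 in tip cells, and Adk, adenosine kinase, 3.11 against 1.59. Lat2, an adaptor of myeloid and B cells, had 2.81, and 1.40 among cells with C1qb on. Ccr2 was on in 9 cells of E12.5 and 2 of E11.5, of which 5 over both stages lay among the 8 cells without C1qb.

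**Figure D5:**
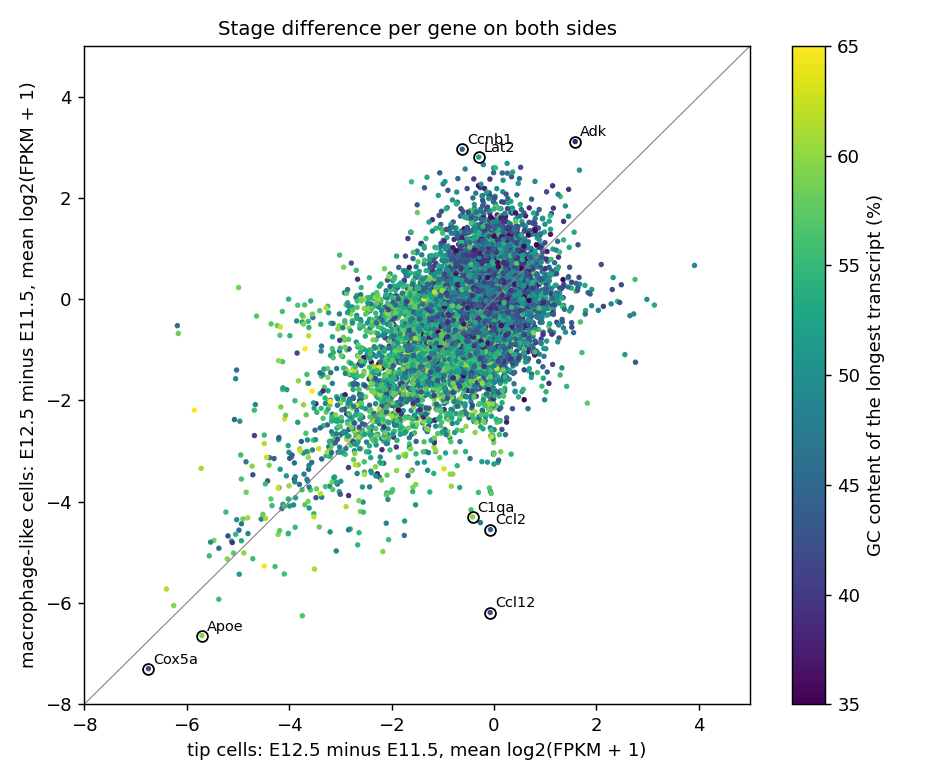
Each point is a gene, with its E12.5 minus E11.5 difference in mean log2(FPKM + 1) in tip cells across and in macrophage-like cells upward, coloured by GC content in percent; the line marks equal differences. Cox5a and Apoe lie near the line, while Ccl12 (-6.19 against -0.07) lies far below it. Ccl12 was on in no tip cell, so its place does not show whether its difference was shared.

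The macrophage-like cells also varied among themselves. Pearson's r of log2(FPKM + 1) between pairs of them had a median of 0.68 at each stage, against 0.57 and 0.58 between a macrophage-like and a tip cell. Across cells, summed levels of the resident and lysosome lists had Pearson r = 0.84 and Spearman coefficient = 0.85 over the 20 cells of E11.5, and r = 0.72 and Spearman coefficient = 0.64 over the 23 of E12.5. The resident and monocyte lists had r = -0.22 and Spearman coefficient = -0.24, and r = -0.37 and Spearman coefficient = -0.60. These correlations share the depth of each cell and are descriptions only. They also mix kinds of cells, since 1 cell of E11.5 and 7 of E12.5 had no C1qb.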

How the data were processed

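Single cells from pancreata of Neurog3-eGFP mouse embryos were profiled by SMART-seq. The authors deposited FPKM values per gene and cell, and gene names in a second table. Per the submitters' processing notes, TopHat2 2.0.13, Cufflinks 2.2.0 and build mm10 were named. No source used here gives the annotation. FPKM already holds a division by length and depth, and fragments per cell are the labels' total mass. Each of the 721 value columns carries the name of 1 cell, with 0 left over. The table held 32806 genes, and 107 spike-in, vector and reporter rows that stayed out of the comparison.

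Values were read with Python 3.11.15, pandas 2.3.3, numpy 2.4.6 and scipy 1.17.1, and plotted with matplotlib 3.10.9. The pseudocount was 1 FPKM, and genes needed a mean of 1 FPKM over the compared cells. The 28 gene lists held 422 genes, of which 421 had 1 entry (Dab2 has more than 1 and was left out). The members and lists were chosen with earlier results of these data known. Named genes were list members, the choosing genes and eGFP, up to 15 others each way with the largest smaller difference of both stages, and up to 10 each way by stage. Genes that lead the Mpo and Il7r cells, and the Mpo and Il7r split itself, were chosen after their values were seen. GC content came from the longest GENCODE vM21 transcript. No test was run, since the labels name no animals. SMART-seq has no molecular identifiers and marks no strand. No doublet caller was run. The calculation of differences was tested on simulated data. The estimates matched their expected values, but part of the raised genes stayed under the difference of 2, so the gene counts miss some changed genes. A first pass mark on the number recovered was missed for E11.5 and was replaced, after that was seen, by the check of the estimates.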

Additional observations from a re-analysis of the deposited data

Results flagged for a closer look

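Only 1 of the 495 kept cells of E13.5 to E15.5 met the choice of macrophage-like cells, and the comparisons above do not use it. It came from run 2 of E15.5 and held 827807 fragments. Its Lyve1 level was 1442 FPKM, while the highest early macrophage-like cell held 425 FPKM and Lyve1 was on in 7 of the 43. It held 8918 FPKM of C1qb, 16057 of Pf4, 1739 of Mrc1, 664 of Folr2 and 411 of Cd163, a gene on in no early cell. Mpo, Ccr2, Il7r and eGFP were listed at 0 in it. A single cell gives no spread, and no comparison with the early cells was tested.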

How the results depend on the processing

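No paired analysis was possible because the labels give no replicate numbers that pair cells and each stage was 1 set. The numbers of macrophage-like and tip cells stayed within their intervals under every alternative run, with 18 to 20 and 20 to 24 macrophage-like cells, and 36 to 38 and 39 to 45 tip cells. The gene counts depend on the scale. With log2 of the mean FPKM, 1086 genes were higher and 2285 lower at E11.5, and 999 and 1806 at E12.5, so the share of higher among counted genes went from 43.4% to 32.2% and from 58.3% to 35.6%. With a pseudocount of 0.1 FPKM the counts were 1195 and 1978, and 1247 and 1097. With 10 FPKM they were 253 and 177, and 223 and 129, so the share of higher at E11.5 was 58.8%. The remaining alternatives (no filter, a mean of 10 FPKM, rescaling every cell to the same sum, 300000 fragments, 3 choosing genes, and leaving out cells) kept every count within 1.5 times. Leaving out cells without C1qb, or tip cells with Chga, Chgb or Gcg on, was chosen after seeing the data. No list median of at least 0.5 in size changed sign. The median over all genes moved by -0.23 and -0.25 with log2 of the mean, and by -0.13 and 0.13 with the lower and the higher pseudocount at E11.5, and was 0 with no filter. Depth per cell and dropout limit what a low value can show: a gene on in no cell stayed under 10 FPKM in each, and a gene at 0 was not detected at this depth.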
